A study of Arabidopsis thaliana with 8 samples.

Results

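The mitochondrial genome (ChrM) supplies 122 of the 24859 mRNA loci in the deposited table of Arabidopsis small RNA counts, and these 122 loci, all rows with ChrM as their chromosome, are described here. The other loci lie in the chloroplast genome (ChrC, 88 loci) or in the nuclear chromosomes (24649 loci). Small RNA was sequenced from Col-0 plantlets kept for 24 days in vitro, with 2 libraries for each of 4 genotypes and 8 libraries in all. The genotypes were WT, urt1-1, which lacks the TUTase URT1, xrn4-3, which lacks the 5′-3′ exoribonuclease XRN4, and the double mutant urt1-1 xrn4-3. All of them share the Col-0 background, each mutation is represented by 1 allele, and no treatment is named in the labels. The study asked whether loss of URT1 and XRN4 lets small RNAs accumulate on mRNAs. The mitochondrial loci form a set of mRNA loci whose transcripts are made in another compartment.

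Plant mitochondria keep a small genome that encodes part of the respiratory chain, part of the ATP synthase, the proteins that attach haem to cytochrome c, some ribosomal proteins, a maturase and a membrane transport protein. Their transcripts are not capped, and a tail added to them promotes decay by exoribonucleases of the organelle. URT1 and XRN4 act on mRNAs of the cytosol. Short RNAs of organelles often collect at RNA ends that bound proteins shield from decay. The annotation of the mitochondrial genome calls such clusters cosRNAs, clusters of organellar short RNAs.

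Of the 122 loci, 38 were placed in role groups and 84 were ORFs with no assigned role. The table gives only locus codes, so gene names were checked against the TAIR10.1 annotation from RefSeq. Notes in that annotation named 17 of the 38, a supplementary table of the study named 3, and for 34 the listed length lay within 5% of that of the RefSeq gene or exon cluster of the same name, with an equal length for 19. The locus ATMG01170 was placed with the ATP synthase by the list alone and is called by its code. The mitochondrial sequence of TAIR10.1 is not the ChrM of the deposited table, so positions of ChrM loci below are those listed in the table for TAIR10, and positions of cosRNAs are those of TAIR10.1.

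The libraries held 6045353 to 30064224 counted reads, of which 56969 to 195077 were counted at ChrM loci. This was 0.596% to 1.38% of the counted reads. No ChrM locus was at 0 in any library, and fewer than 10 reads were found for 4 loci in urt1-1 replicate 2 and for 1 locus in xrn4-3 replicate 1. The small RNA counts do not check the genotypes, since reads at the mutated loci need not follow their mRNA: the URT1 locus held 41 to 196 reads in 7 libraries and 3141 in xrn4-3 replicate 2, and the XRN4 locus held 61 to 206 reads. The xrn4-3 replicate 2 library therefore stood apart at URT1, and ChrM values without it are given below where they matter.

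To show what short RNAs of these genes look like, annotated cosRNAs were located in the coding exons of the RefSeq genes. The mitochondrial annotation holds 254 cosRNAs, and 24 nt is their most frequent length, with 83 of them. The 6 stretches below, each of 30 bases, lie in genes of different roles and are written 5′ to 3′ in the direction of the cosRNA, which is in capitals.
nad6 cosRNA M93: ggACTATAATGAGGAGGACGACTGACCCac
mttB cosRNA M215: cccCCCCTAGAACCTGGCAAAGTAACtatc
ccmC cosRNA M58: tctctttGCATCCATGGCTGAAtggttaaa
cox1 cosRNA M15: tttcatTCTGGTTGTTGCCACCAagtctct
matR cosRNA M95: ggtCGGAGCAACGCGTCATCGGACGTTcaa
cox3 cosRNA M65: cacGTAGAACATCGCGCCACCATACGAaca
The first 5 run in the sense of their gene, and the one in cox3 is antisense. M93 covers bases 577 to 602 of the 618 bases of nad6 (positions 166414 to 166439, plus strand), and M215 covers bases 812 to 834 of the 843 bases of mttB (218913 to 218935, minus strand). Both thus lie at the 3′ end of their coding sequence. M58 lies at 309033 to 309047 (plus), M15 at 116016 to 116032 (minus), M95 at 232490 to 232513 (plus) and M65 at 330578 to 330601 (plus). All but M15 also occur without a mismatch on chromosome 2, as M93 does at 3467282 to 3467307. The deposited counts give no read positions, strands or sizes, so it could not be seen which reads at a locus were cosRNAs.

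The level of small RNAs was very uneven among the loci. CPM here means reads per 1000000 counted reads after scaling by TMM, a normalization factor for each library, and CPM per kb divides this by the listed length of the locus. In WT, the mean CPM per kb ran from 4.34 ± 0.361 (SD, n = 2) at ATMG00710 to 6811 ± 1635 at ATMG00030, with a median of 48.6. The median level was 72.9 CPM per kb over the 38 loci of role groups and 34.1 over the 84 ORFs, but the 4 highest loci were all ORFs.

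**Figure D1:**
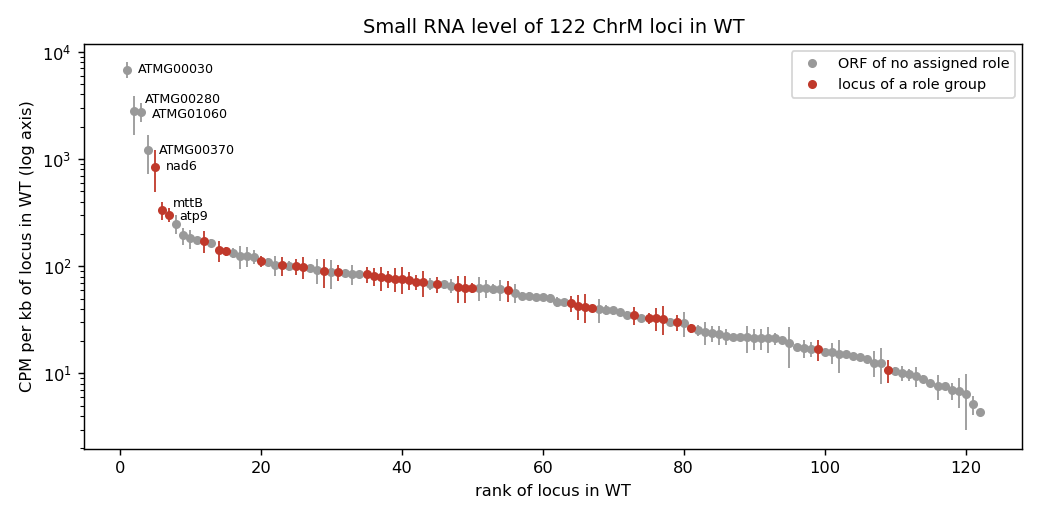
Mean CPM per kb in WT (log axis) of the 122 ChrM loci in order of rank, with lines that join both WT libraries. Red points are loci of a role group and grey points are ORFs. ATMG00030 stands at 6811 CPM per kb, and nad6, at 849, is the highest locus of a role group.

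The 5 highest loci in WT were ATMG00030, ATMG00280, ATMG01060, ATMG00370 and nad6. They were also the 5 highest in each of the 8 libraries, with ATMG00030 first in each. Together they took 41.0% to 57.1% of the ChrM CPM of a library.

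ATMG00030 (positions 11918 to 12241, 324 bp) is an ORF with no role in the annotation used here. Its level was 2581 and 1832 CPM in WT, 3437 and 2183 in urt1-1, 3231 and 1182 in xrn4-3, and 2599 and 1189 in urt1-1 xrn4-3. The libraries of each mutant overlapped those of WT, and replicate 2 was the lower library in every genotype. This locus alone made up 14.1% to 27.0% of the ChrM CPM of a library. The log2 fold change was -0.22 ± 0.64 (SE) in urt1-1 xrn4-3 and -0.00 ± 0.64 in xrn4-3.

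ATMG00280 (77819 to 78151, 333 bp) is annotated, through its copy AT2G07732 on chromosome 2, as a stretch of the large chain of Rubisco, the enzyme of carbon fixation, whose gene rbcL lies in the chloroplast. Exact runs of at least 21 bases shared with the chloroplast genome covered 83.7% of that copy, and the longest, of 110 bp, lies in rbcL (chloroplast positions 55688 to 55797). ATMG00280 had 1301 and 557 CPM in WT, 957 and 737 in urt1-1, 919 and 411 in xrn4-3, and 406 and 156 in urt1-1 xrn4-3. Both double mutant libraries lay below both WT libraries, and the log2 fold change of -1.72 ± 0.66 was the lowest of the 122 loci in that comparison. It did not pass the test (adjusted p = 0.0827, edgeR likelihood ratio test), but was called as lowered by DESeq2 (-1.80), with the replicate number as a block (-1.75) and without urt1-1 xrn4-3 replicate 1 (-2.67).

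The chloroplast rbcL locus (ATCG00490, 54958 to 56397) had 9707 and 5062 CPM in WT, 7208 and 6413 in urt1-1, 7161 and 3072 in xrn4-3, and 2989 and 1431 in urt1-1 xrn4-3. The 8 libraries stood in the same order as at ATMG00280. Its log2 fold change in urt1-1 xrn4-3 was -1.74 ± 0.63 and the ratio of ATMG00280 to rbcL stayed between 0.109 and 0.136 in the 8 libraries. A read that fits both equally well counts at both, so reads of ATMG00280 and of rbcL could not be told apart where the sequences are equal.

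ATMG00370 (104954 to 105553, 600 bp) resembles the chloroplast gene ycf1, whose protein has been assigned to protein import into chloroplasts. Its copy on chromosome 2, AT2G07739, is 100% covered by exact runs shared with the mitochondrial genome and 76.3% covered by runs shared with the chloroplast, the longest of 200 bp. ATMG00370 had 1016 and 439 CPM in WT, 920 and 727 in urt1-1, 986 and 510 in xrn4-3, and 628 and 343 in urt1-1 xrn4-3. The groups overlapped in every comparison with WT. The ratio of ATMG00370 to the chloroplast locus ATCG01130 (123884 to 129244) was 3.10 to 4.69 in 7 libraries and 7.99 in urt1-1 xrn4-3 replicate 2. The 200 bp run was located at 109527 to 109726, within ATCG01000 (109405 to 110436), and the ratio to that locus is not given here. ATCG01130 is much longer than ATMG00370, so this ratio is not set against that of ATMG00280 to rbcL.

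ATMG01060 (274899 to 275222, 324 bp) is an ORF with no known role. A pseudogene of it on chromosome 2, AT2G07807, of 92 bp, matches the mitochondrial genome without a mismatch over its whole length at 171660 to 171751 and shares no run of 21 bases with the chloroplast. That stretch holds cosRNA M155 (171700 to 171740, 41 nt). ATMG01060 had 1076 and 715 CPM in WT, 1111 and 1332 in urt1-1, 969 and 1132 in xrn4-3, and 1220 and 419 in urt1-1 xrn4-3. Both urt1-1 libraries lay above both WT libraries, with a log2 fold change that did not pass the test, and the double mutant libraries were the highest but one and the lowest of the 8.

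The subunit gene nad6 (ATMG00270, 76642 to 77259), which encodes a membrane subunit of complex I and holds cosRNA M93, had 742 and 307 CPM in WT, 541 and 515 in urt1-1, 724 and 560 in xrn4-3, and 743 and 268 in urt1-1 xrn4-3. The spread within WT and within the double mutant exceeded any difference between genotypes. The next loci were mttB (ATMG00570, 334 ± 88.5 CPM per kb in WT), which encodes a subunit of a Tat-type protein translocase and holds cosRNA M215, and atp9 (ATMG01080, 303 ± 64.4), which encodes the ring subunit of the ATP synthase. As a description, the median in WT was 90.02 CPM per kb for the 7 loci whose gene holds a sense cosRNA in a coding exon and 67.7 for the other 31 loci of role groups, with ranges of 16.8 to 849 and 10.7 to 303 that overlapped widely.

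**Figure D2:**
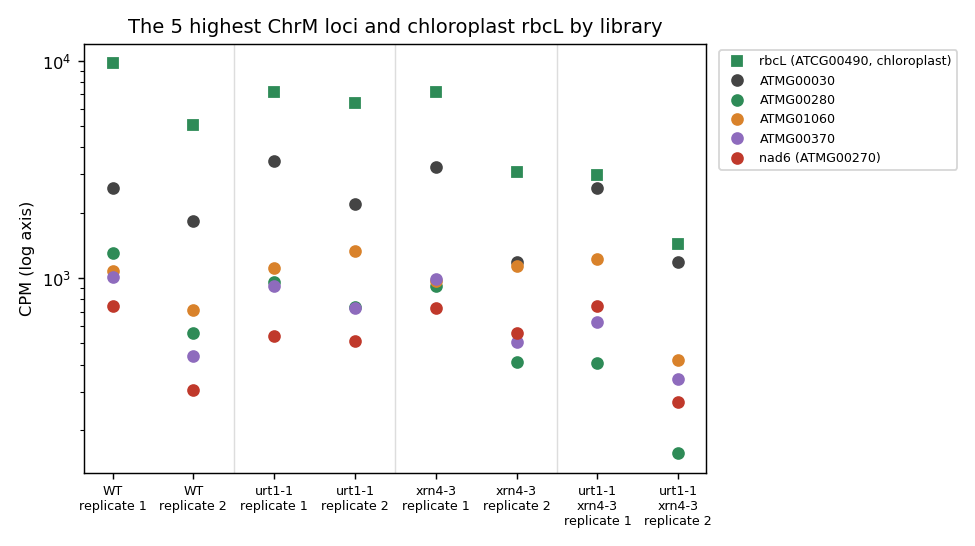
CPM (log axis) of the 5 highest ChrM loci and of chloroplast rbcL in each of the 8 libraries, with 1 point for each locus and library. ATMG00280 and rbcL, both in green, keep a ratio of 0.109 to 0.136 and are lowest in urt1-1 xrn4-3 replicate 2.

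At the other end, the 5 lowest loci in WT were ATMG00470, ATMG00150, ATMG00970, ATMG00140 and ATMG00710, at 4.34 to 6.94 CPM per kb. All 5 are ORFs with no assigned role. The lowest locus of a role group was ccmB (ATMG00110, 10.7 ± 3.55 CPM per kb), which encodes a membrane protein for haem transport in cytochrome c maturation.

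Summed over all 122 loci, ChrM small RNAs did not differ between genotypes beyond the spread between replicates. The sum was 14453 and 9383 CPM in WT, 13834 and 10408 in urt1-1, 11968 and 8365 in xrn4-3, and 12170 and 5434 in urt1-1 xrn4-3. Each mutant overlapped WT. The ratio of means to WT was 1.02 in urt1-1 (p = 1), 0.853 in xrn4-3 (p = 0.667) and 0.739 in urt1-1 xrn4-3 (p = 0.667; exact two-sided permutation tests), where 0.33 is the smallest p that 2 against 2 libraries allow. Replicate 1 exceeded replicate 2 in each genotype, by 2.24 times in urt1-1 xrn4-3 and by 1.33 to 1.54 times in the others. Without the 5 highest loci, the sum with TMM was 7737 and 5534 CPM in WT and 5138 and 4569 in xrn4-3. Both xrn4-3 libraries thus lay below both WT libraries (ratio of means 0.732, exact permutation p = 0.33). The sums in urt1-1 (6867 and 4914) and urt1-1 xrn4-3 (6575 and 3058) still overlapped WT. In RNA of whole plantlets, fewer mitochondrial transcripts and fewer small RNAs per transcript cannot be told apart.

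The chloroplast loci are the set most like these. Their sum was 85388 and 50055 CPM in WT, 64572 and 70421 in urt1-1, 56872 and 44907 in xrn4-3, and 40098 and 17951 in urt1-1 xrn4-3, so that in the double mutant both libraries lay below both WT libraries (ratio of means 0.429, exact permutation p = 0.33). The ratio of the ChrM sum to the ChrC sum was 0.169 and 0.187 in WT, 0.214 and 0.148 in urt1-1, 0.210 and 0.186 in xrn4-3, and 0.304 and 0.303 in urt1-1 xrn4-3. Both double mutant libraries thus had a higher ratio than each of the 6 other libraries. Against WT the ratio of means was 1.70, with the smallest p the design allows (exact permutation p = 0.33), so this difference did not pass a test.

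**Figure D3:**
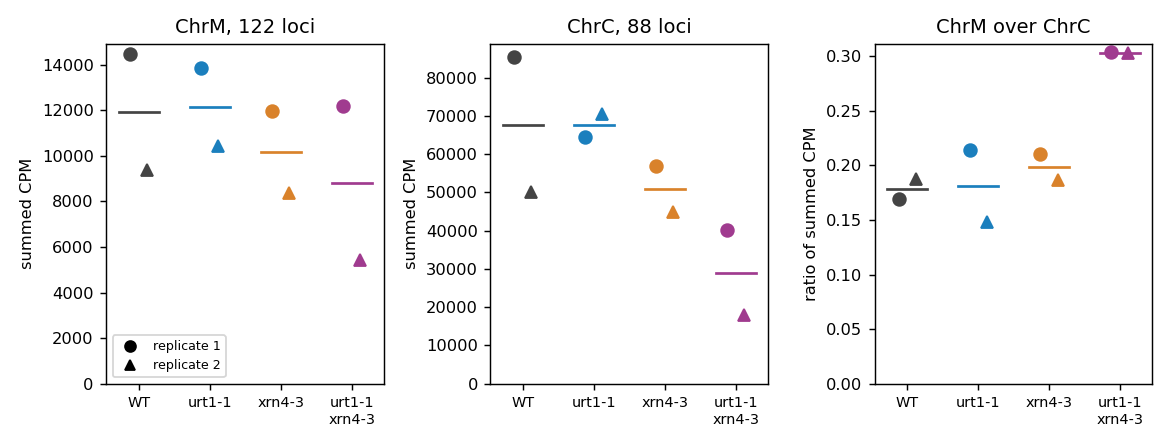
Summed CPM of the 122 ChrM loci (left), of the 88 ChrC loci (middle) and their ratio (right) in each library, with circles for replicate 1, triangles for replicate 2 and lines for the mean of 2. The ChrM sums of the genotypes overlap, whereas the ratio is 0.304 and 0.303 in urt1-1 xrn4-3 and at most 0.214 elsewhere.

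No ChrM locus passed the test in any comparison of genotypes. All 122 were among the 24722 loci tested with edgeR's likelihood ratio test, with p-values adjusted by Benjamini-Hochberg over all 24722 and a threshold of 0.05. In urt1-1 against WT, 0 of 122 were called, where 0.0243% of all loci tested were raised and 0.00404% lowered. In xrn4-3 against WT, 0 of 122 were called, where 4.19% of all loci were raised and 0.259% lowered. In urt1-1 xrn4-3 against WT, 0 of 122 were called, where 10% of all loci were raised and 1.05% lowered. The double mutant against xrn4-3 (1.73% raised and 0.311% lowered among all loci), the double mutant against urt1-1 (8.35% and 0.918%) and the interaction of both mutations (0.089% and 0.0324%) also gave 0 of 122.

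At an unadjusted p under 0.05, the same test gave 0 ChrM loci in urt1-1, 6 in xrn4-3 and 3 in the double mutant against WT, 0 in the double mutant against xrn4-3, 1 against urt1-1 and 0 for the interaction. Over all loci tested, the shares at that threshold were 2.1%, 12.6%, 21.7%, 10.4%, 19.9% and 5.2%, in the same order, against 4.92% of ChrM loci in xrn4-3 and 2.46% in the double mutant against WT. Each of these loci had a negative fold change. The quasi-likelihood test of edgeR called 0 loci in all 6 comparisons, and DESeq2 called 1, ATMG00280, as lowered in urt1-1 xrn4-3 against WT. For these alternatives the share of calls over all loci is not given here. The standard errors of the ChrM loci had a median of 0.52 to 0.53 on the log2 scale in the 5 comparisons between genotypes.

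Although no locus was called, most ChrM loci had a lower mean level in the mutants with TMM scaling, which in the double mutant did not hold with genome-mapped reads as library sizes. The median log2 fold change over the 122 loci was -0.17 in urt1-1, -0.48 in xrn4-3 and -0.33 in urt1-1 xrn4-3, where the medians over all loci tested were -0.00, 0.05 and 0.01. The fold change was negative for 98, 113 and 111 of the 122. These loci share libraries and, in part, reads, so the counts of negative values are not independent.

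The order of single libraries gives another view. In xrn4-3, both libraries lay below both WT libraries at 67 of the 122 loci (54.9%), against 15% of all loci tested, and above them at 0, against 22.9%. In urt1-1 xrn4-3 this held for 18 loci (23% of all loci were below) and in urt1-1 for 13 (11.6%), both with 1 or fewer loci above, against 30.1% and 13.6% of all loci. With library size only or genome-mapped reads in place of TMM, alternatives chosen after these values had been seen, the xrn4-3 count was 42 and 43 of 122, against 5.83% and 4.24% of all loci. With mapped reads, the double mutant libraries lay below WT at 5 loci and above it at 26, against 2.2% and 53.3% of all loci. In the double mutant with TMM, 121 of the 122 loci were higher in replicate 1 than in replicate 2, and most loci overlapped WT. At ChrC loci, by contrast, 48 of 88 had both double mutant libraries below WT and 4 of 88 had both xrn4-3 libraries below WT.

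These directions depended on how libraries were scaled. With genome-mapped reads as library sizes, the ChrM median in urt1-1 xrn4-3 against WT was 0.35, while the median of all loci was 0.74, so that relative to all loci the ChrM median was -0.39, where it was -0.34 with TMM. In xrn4-3 the ChrM median was -0.19 with mapped reads and -0.21 with library size only, which is -0.46 and -0.52 relative to all loci and -0.53 with TMM. For the groups described below, values are with TMM. With mapped reads, the double mutant medians of complex I, complex IV, the ribosomal proteins, the cytochrome c maturation genes and the ORFs turned positive (0.12 to 0.40). That of the ATP synthase was -0.19.

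The values also depended on single libraries. Without its replicate 1 the double mutant had a median over the 122 loci of -1.19 against WT, and without its replicate 2 a median of 0.18. In xrn4-3 the median was -0.50 without replicate 1, -0.47 without replicate 2 and -0.22 without WT replicate 1. In urt1-1 it turned to 0.11 without WT replicate 1 and to 0.07 without urt1-1 replicate 2, and was -0.53 without urt1-1 replicate 1.

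The loci with the lowest unadjusted p in xrn4-3 were ORFs of low level. ATMG00200 had 5.56 and 2.61 CPM in WT and 1.77 and 1.55 in xrn4-3 (log2 fold change -1.32 ± 0.53, adjusted p = 0.17). ATMG00440, whose counts equal those of ATMG01140, had 10.4 and 9.90 CPM in WT and 2.77 and 5.87 in xrn4-3 (-1.21 ± 0.48, adjusted p = 0.174). ATMG00260 had the highest fold change in xrn4-3 (1.13 ± 0.69) through 1 library, with 2.15 and 2.50 CPM in WT and 8.20 and 2.07 in xrn4-3. ATMG00200 and ATMG00260 were chosen after their values were seen.

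The respiratory genes can be read by complex. Complex I, the NADH dehydrogenase that feeds electrons into the chain, was represented by 14 loci, because nad1, nad2 and nad5 are spliced together from separate transcripts and are listed in pieces. None of the 14 was called in any comparison. Their median log2 fold change was -0.17 in urt1-1, -0.47 in xrn4-3 and -0.45 in urt1-1 xrn4-3, and both xrn4-3 libraries lay below both WT libraries at 9 of 14, against 15% of all loci. The double mutant median was -1.29 without its replicate 1, -0.01 without its replicate 2, where 7 of 14 values were negative, and -0.20 without WT replicate 1. Without WT replicate 1 it was -0.17 in xrn4-3 and 0.09 in urt1-1.

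The long intron-bearing complex I loci show the xrn4-3 pattern. The larger nad2 locus (ATMG01320) had 645 and 518 CPM in WT, 366 and 359 in xrn4-3, and 598 and 242 in urt1-1 xrn4-3. At nad4 (ATMG00580), the values were 632 and 449 in WT, 382 and 353 in xrn4-3, and 522 and 234 in urt1-1 xrn4-3. At nad7 (ATMG00510) they were 428 and 340 in WT, 278 and 307 in xrn4-3, and 365 and 227 in urt1-1 xrn4-3. In all 3, the xrn4-3 libraries lay below WT with adjusted p of 0.79, 0.852 and 0.913, and the double mutant libraries overlapped WT.

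At the intronless gene nad9 (ATMG00070), which encodes a peripheral subunit of complex I, both xrn4-3 libraries also lay below both WT libraries. Unlike at the loci above, both double mutant libraries did so too. The level of nad9 was 47.3 and 34.4 CPM in WT, 32.3 and 38.2 in urt1-1, 32.8 and 27.6 in xrn4-3, and 23.7 and 15.8 in urt1-1 xrn4-3. Both double mutant libraries were below all 6 others, with a log2 fold change of -1.05 ± 0.45 against WT (adjusted p = 0.137, edgeR likelihood ratio test). At the subunit gene nad4L (ATMG00650) the double mutant libraries, with 14.9 and 8.10 CPM, also lay below both WT libraries, with 27.2 and 15.7. The shortest locus, a nad5 exon listed with 22 bp (ATMG00665), had 1.04 to 4.37 CPM in the 8 libraries.

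The ATP synthase, which makes ATP from the proton gradient, was represented by 6 loci. Over these, the median log2 fold change was -0.16 in urt1-1, -0.17 in xrn4-3 and -0.93 in urt1-1 xrn4-3. At all 6, both double mutant libraries lay below both WT libraries (23% of all loci), and at 0 of the 6 did both xrn4-3 libraries do so (15% of all loci). None of the 6 was called. The double mutant median was -0.51 without WT replicate 1, -1.36 without double mutant replicate 1 and -0.64 without double mutant replicate 2. The xrn4-3 median had no stable sign, with 0.22 without WT replicate 1, 0.06 without xrn4-3 replicate 2, -0.45 without xrn4-3 replicate 1, -0.49 without WT replicate 2 and 0.08 with library size only or with mapped reads.

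The catalytic subunit gene atp1 (ATMG01190) had 325 and 203 CPM in WT, 229 and 215 in urt1-1, 248 and 186 in xrn4-3, and 154 and 104 in urt1-1 xrn4-3 (log2 fold change -1.03 ± 0.52, adjusted p = 0.231). The proton channel subunit gene atp6-1 (ATMG00410) had 129 and 72.7 CPM in WT, 91.3 and 89.7 in urt1-1, 115 and 75.2 in xrn4-3, and 59.8 and 42.3 in urt1-1 xrn4-3 (-0.98 ± 0.52, adjusted p = 0.256). In both genes the double mutant libraries were the lowest 2 of the 8. The ring subunit gene atp9 had 176 and 130 CPM in WT and 106 and 64.3 in urt1-1 xrn4-3. The other members were ATMG01170 (-0.99), atp8 (ATMG00480, -0.87) and atp4 (ATMG00640, -0.81).

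The genes for electron transfer past complex I are cob and the cox genes. The apocytochrome b gene cob (ATMG00220), the mitochondrial gene of complex III, had 96.4 and 53.6 CPM in WT, 63.1 and 55.2 in urt1-1, 72.1 and 54.4 in xrn4-3, and 48.2 and 30.1 in urt1-1 xrn4-3 (-0.94 ± 0.51, adjusted p = 0.274). Of the 3 genes of complex IV, the cytochrome c oxidase, cox1 (ATMG01360) had 186 and 99.3 CPM in WT and 85.7 and 61.0 in the double mutant (-0.96 ± 0.52, adjusted p = 0.279). The cox2 and cox3 loci had log2 fold changes of -0.56 and -0.57 and overlapped WT. Without double mutant replicate 1 the value of cob was -1.41 and the median of complex IV -1.32, and without WT replicate 1 they were -0.45 and -0.29.

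The other role groups serve cytochrome c maturation, translation, splicing and transport. Over the 5 cytochrome c maturation loci the median was -0.27 in urt1-1 xrn4-3 and -0.26 in xrn4-3. At 0 of the 5 were both double mutant libraries below WT, against 23% of all loci, a count too small to set the group apart. The double mutant median of this group was -0.94 without its replicate 1 and 0.19 without its replicate 2. Within this group ccmC (ATMG00900), which encodes a haem handling protein, had 45.5 and 76.3 CPM in WT and 102 and 70.2 in urt1-1, and was the only member with a positive fold change in urt1-1. The 7 ribosomal protein loci had medians of -0.37 in xrn4-3 and -0.51 in urt1-1 xrn4-3, the latter -1.19 without its replicate 1 and -0.09 without its replicate 2. Among them rps7 (ATMG01270) had 18.9 and 17.3 CPM in WT, 8.45 and 11.5 in xrn4-3, and 21.7 and 8.49 in urt1-1 xrn4-3. The maturase gene matR (ATMG00520), whose protein takes part in intron splicing, had -0.64 in xrn4-3 and -0.34 in the double mutant. It lies within the listed nad1 locus ATMG00516, so its reads count at both.

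The 84 ORFs had a median of -0.15 in urt1-1, -0.53 in xrn4-3 and -0.28 in urt1-1 xrn4-3. At 51 of the 84 both xrn4-3 libraries lay below WT, against 15% of all loci, and at 6 both double mutant libraries did, against 23%. The double mutant median of the ORFs was -1.19 without its replicate 1, 0.24 without its replicate 2 and -0.07 without WT replicate 1. With genome-mapped reads as library sizes it was 0.37, with a negative value for 6 of the 84.

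**Figure D4:**
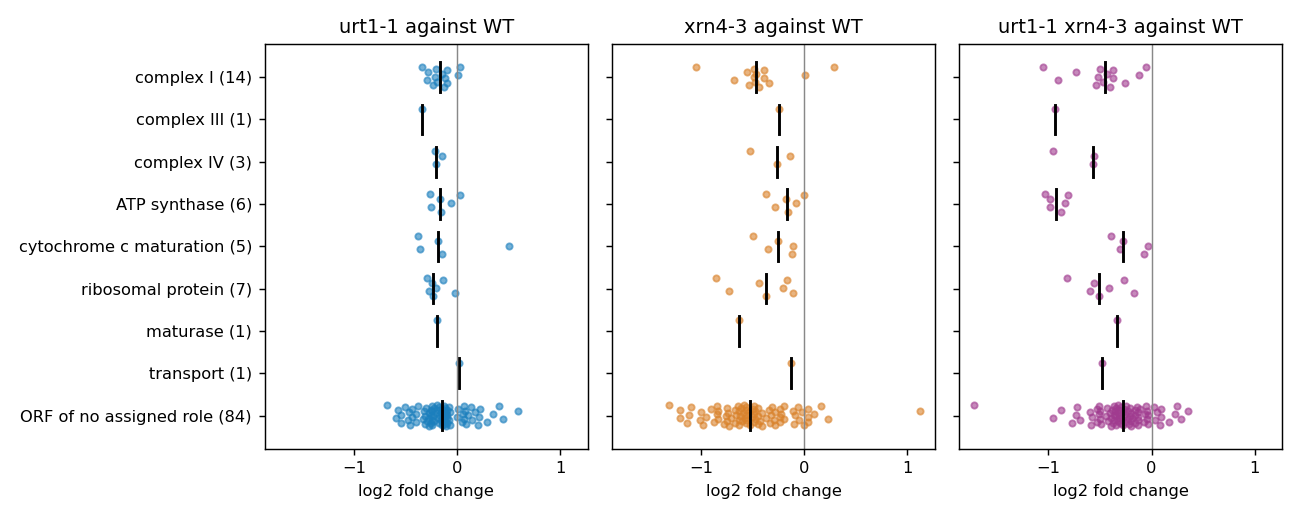
Log2 fold change against WT of each ChrM locus, by role group (number of loci in brackets), in urt1-1 (left), xrn4-3 (middle) and urt1-1 xrn4-3 (right). Points are loci, black lines are group medians and the grey line marks 0. Libraries were scaled by TMM. No point passed the test, and the 6 ATP synthase loci have a median of -0.93 in the double mutant (-0.19 with genome-mapped reads as library sizes).

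Many ChrM loci share sequence with the nucleus, because chromosome 2 of Col-0 carries a large insertion of mitochondrial DNA. Of the 33 RefSeq coding sequences, 22 had at least 90% of their 21-nt windows on chromosome 2 without a mismatch, with a median of 98.7%. Only atp4, ccmB and nad9 had none there. The annotation names a copy on chromosome 2 for 52 of the 122 loci, and the table lists 46 of the copies, for 45 loci.

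The counts of copies of equal length were close to those of the ChrM loci. Of the 46 pairs, 15 have equal length, and their ratio of reads, copy to ChrM locus, had a median of 1 and a range of 0.893 to 1.09. Over all 46 pairs, most of them of unequal length, the median ratio was 1.19. It ran from 0.126 (ATMG01320 with AT2G07689) to 616 (ATMG00470 with AT2G07706). In 8 pairs the counts were equal in all 8 libraries. These were ATMG00480 (atp8) with AT2G07707, ATMG00540 with AT2G07713, ATMG00590 with AT2G07718, ATMG00900 (ccmC) with AT2G07771, ATMG00980 (rps12) with AT2G07675, ATMG01140 with AT2G07702, ATMG01150 with AT2G07701 and ATMG01310 with AT2G07691. Within ChrM, ATMG00170 equals ATMG00620, ATMG00430 equals ATMG01150, and ATMG00440 equals ATMG01140. The same reads were thus counted more than once, and mitochondrial and nuclear origin cannot be told apart for these loci. None of the 46 copies was called in any of the 6 comparisons by the likelihood ratio or quasi-likelihood test of edgeR. At an unadjusted p under 0.05, the former gave 2 copies in xrn4-3 against WT, 1 each in the double mutant against WT and against urt1-1 and 0 in the other comparisons, where 12.6%, 21.7% and 19.9% of all loci reached that p in the first 3. DESeq2 called 1 copy in the double mutant against WT and 1 against urt1-1, and its share of calls over all loci is not given here.

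**Figure D5:**
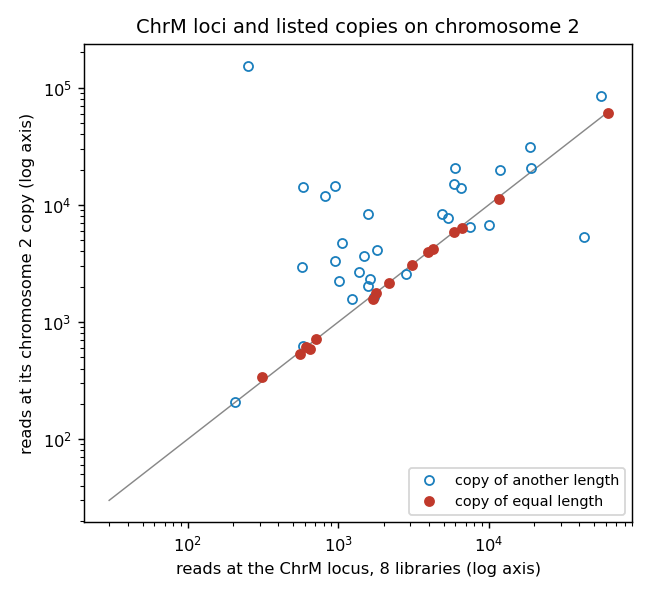
Reads over all 8 libraries at 46 copies on chromosome 2 against reads at the ChrM locus each copies (both log axes). Red points are the 15 copies of equal length, which lie on the grey line of equality (ratio 0.893 to 1.09), and open blue circles are copies of another length.

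Some role loci had few exact matches of their coding windows in the nuclear chromosomes of the reference. Introns and matches with 1 mismatch were not searched, so nuclear reads at these loci were not excluded. In 6 role loci, nad4L, nad9, cox1, atp4, ccmB and rps3, under 12% of the coding windows occur in the nuclear chromosomes. Their summed level was 438 and 269 CPM in WT, 305 and 294 in urt1-1, 327 and 250 in xrn4-3, and 246 and 161 in urt1-1 xrn4-3. With TMM, both double mutant sums were lower than each of the 6 other sums, whereas the urt1-1 and xrn4-3 sums overlapped those of WT. Values of this set are given with TMM and all libraries only. Over all 122 loci, the double mutant median turned positive with mapped reads (0.35) and without double mutant replicate 2 (0.18). Their median log2 fold change in the double mutant was -0.86, with a negative value for 6 of 6, and that of the other 32 role loci was -0.48. The 12% limit was chosen after the shares had been seen.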

How the data were processed

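Small RNA of 8 libraries was used, grouped by their labels. Per the labels and the study's methods, the authors called bases with CASAVA 1.8.2, mapped reads of 14 to 30 nt to TAIR10 with Bowtie 1.0.0 (1 mismatch, at most 50 loci, best alignments kept) and deposited raw counts per mRNA locus from bedtools 2.17.0, without regard to strand. They also deposited CPM from edgeR 3.26.5, divided by a further normalization factor, which were read but not used. A read with several best alignments counts at each, and 10 pairs of ChrM loci overlap.

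The counts were fitted here with edgeR 4.0.16 in R 4.3.3 (TMM, filterByExpr with a count minimum of 10, one coefficient per genotype, likelihood ratio test, Benjamini-Hochberg over 24722 loci), with DESeq2 1.42.0 as an alternative, and the test was tested on simulated data. Sums were compared by exact permutation in Python 3.11.15 with scipy 1.17.1. Sequences came from RefSeq TAIR10.1. Loci were named by role, by the 5 highest and 5 lowest levels in WT and by shared sequence, and others after their values were seen. The members and lists were chosen with earlier results of these data known. Alternatives were other tests, scalings, filters, a replicate block and each library left out, with 1 set of scalings for the order of libraries added after the values had been seen. The edgeR p-values rest on a spread within genotypes that was estimated from all 8 libraries and moderated over all loci tested. Exact permutation p-values rest on the 2 libraries of each genotype compared.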

Additional observations from a re-analysis of the deposited data

How the results depend on the processing

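The count of 0 called ChrM loci held in each comparison and direction under all 19 alternatives run, with these exceptions. In urt1-1 xrn4-3 against WT, DESeq2 called 1 locus lowered and the replicate block 1 (ATMG00280 in both, with log2 fold changes of -1.80 and -1.75), and leaving out each library in turn gave 0 to 3, with 3 (ATMG00280 at -2.67, ATMG00890 and ATMG01050) without urt1-1 xrn4-3 replicate 1. In urt1-1 xrn4-3 against urt1-1, the replicate block called 1 (ATMG00280, -1.76). Deviations of same-numbered libraries over all loci correlated by 0.036 to 0.36, all 6 positive and 4 of them over 0.1. The study's methods say that replicates were grown at different times but not that libraries of 1 number shared a time, so the pairing is not established and the fit without the block was kept. With the block, 11 ChrM loci instead of 3 had an unadjusted p under 0.05 in the double mutant against WT, and 10 instead of 6 in xrn4-3. Without the block, 21.7% and 12.6% of all loci reached that p in these comparisons. The shares of all loci with the block are not given here, so these counts are not read as a ChrM result. Of 5974 fold changes of 56 named loci under an alternative, 543 had another sign than the value given, and 4 passed the threshold, all of ATMG00280. The ratio of summed ChrM CPM moved by less than the replicate spread under each of its alternatives, though it changed sides of 1 in several. With genome-mapped reads the double mutant had 1.19 against WT (0.739 with TMM), 1.19 against xrn4-3 (0.866) and 1.19 against urt1-1 (0.726), and xrn4-3 had 1.00 against WT (0.853), also slightly above 1 with library size only. Leaving out a library gave 0.839 to 1.29 in urt1-1, 0.702 to 1.08 in xrn4-3 and 0.456 to 1.02 in the double mutant against WT, and 0.535 to 1.20 and 0.448 to 1.00 in the double mutant against xrn4-3 and urt1-1.

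Levels per coding length of the whole RefSeq gene, in place of listed length, kept 3 of the 5 highest of the 38 role loci among the 5 highest. The pieces of nad1, nad2 and nad5 were thus divided by 978, 1467 and 2010 bp, which is not the coding length of each piece. No ChrM locus was at 0 in any library, but depth was low at the lowest loci. Fewer than 10 reads were found for 4 loci in urt1-1 replicate 2 and for 1 locus in xrn4-3 replicate 1. The number of libraries limits precision.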
